A study of Mus musculus with 6 samples.

Results

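Transcript levels are described for 34 genes of glucose metabolism, named from a list of the enzymes and transporters that carry glucose into the cell, break it down to pyruvate and lactate, export lactate, divert glucose into the pentose phosphate pathway or store it as glycogen. Probes were assigned to genes through the RefSeq accession that the array files give. Of the 34 genes, 32 had such a probe, and all 32 were well above background on every array. Gapdh and Pgd were not analysed here. The 32 genes were fitted together with all others, 14236 genes in all, out of 16535 with a named probe.

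Within the seminiferous tubule, Sertoli cells enclose the germ cells and supply them with nutrients. They take up glucose, convert most of it to lactate and export the lactate, which developing germ cells use as fuel. Glucose transporters and hexokinases begin the route, phosphofructokinases and pyruvate kinase control its rate, lactate dehydrogenases and monocarboxylate transporters complete it, and pyruvate dehydrogenase kinases hold pyruvate back from the mitochondria. PD0325901 is a small-molecule inhibitor of MEK1/2, the kinases that activate ERK, and bFGF is a growth factor whose receptors act in part through ERK.

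All cells were primary Sertoli cells isolated from C57BL/6J mice, whose age the labels do not give. Culture was at 34 °C in F12/DMEM. Added to it were transferrin at 5 µg/ml, EGF at 5 ng/ml and insulin at 10 µg/ml, so every group, vehicle included, received growth factors. The medium was changed on days 2 and 4. From day 5 the cells received vehicle, bFGF (20 ng, volume not given in the labels) or 10 µM PD0325901 for 24 h. Each group had 2 arrays. The labels do not say whether these are independent cultures or mice. The p-values thus reflect only how far arrays of a group differ, which may be technical.

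Each array was a 1-colour Agilent array, on which brightness reports the amount of a transcript. Levels are given as the log2 of a probe's processed signal minus the array's own 75th percentile, so 0 marks that percentile and a difference of 1 is a doubling. Probes differ in brightness for the same amount of RNA, so levels are compared between arrays for 1 gene and never between genes. The 75th percentile lay between 1464 and 1613 signal units, and no spot was saturated. The share of probes well above background was 75.6% and 75.9% with bFGF but only 64.9% to 66.6% on the other 4 arrays. Every treatment had its own slide, and the effects of slide and treatment cannot be told apart. All 14 Sertoli cell markers examined, among them Sox9, Wt1, Gata4, Amh and Fshr, were well above background on all 6 arrays. Their summed log2 level was 8.68 and 8.72 with vehicle, 8.69 and 8.65 with bFGF and 8.63 and 8.71 with PD0325901. Under PD0325901, 5 of these 14 were higher and 4 lower by limma (64.3% called, beside 53.4% of all genes tested). In a culture measured as a whole, fewer cells of a type and less RNA per cell cannot be told apart.

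The ERK target Dusp6 was lower under PD0325901 by a log2 difference of -6.07 ± 0.07 (SE, adjusted p = 4.23e-05), and it differed from vehicle by -0.11 under bFGF (adjusted p = 0.32). Egr1, another early target of ERK, differed by -3.77 under PD0325901 (adjusted p = 5.56e-05) and by 0.23 under bFGF (adjusted p = 0.0617).

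PD0325901 moved the glucose genes in both directions. Against vehicle, 9 of the 32 members were higher and 11 lower at an adjusted p under 0.05, and 12 did not pass. The background was high, since 53.4% of all genes tested passed in this comparison (24.1% higher and 29.3% lower), beside 62.5% of the members. The median log2 difference of the members was -0.0037, against -0.045 for all genes. The sizes were moderate: 6 members (18.8%) passed with a change of at least 1.5-fold, beside 23.9% of all genes. No member reached 2-fold, a size that 11.8% of all genes reached. The members higher were the glucose transporter Slc2a3, Pfkm, Pfkfb3, Pgam1, Eno2, the lactate transporter Slc16a3, Pdk1 and Pdk2, and by its brightest probe Pfkfb2, whose probes disagreed. Those lower were Slc2a1, Hk2, Gpi1, Pfkl, Eno1, Pkm, Ldha, Ldhb, Pdha1, Tkt and Taldo1. At 3 steps isoforms were split, with Slc2a3, Pfkm and Eno2 higher while Slc2a1, Pfkl and Eno1 were lower. At others they moved together, with Ldha and Ldhb both lower and Pdk1 and Pdk2 both higher. Of the 20 calls, 11 were made in each of 15 alternative analyses (Slc2a1, Hk2, Pfkm, Pfkfb3, Eno2, Pkm, Ldha, Ldhb, Pdk1, Pdk2 and Taldo1), and no alternative called a member the opposite way.

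**Figure D1:**
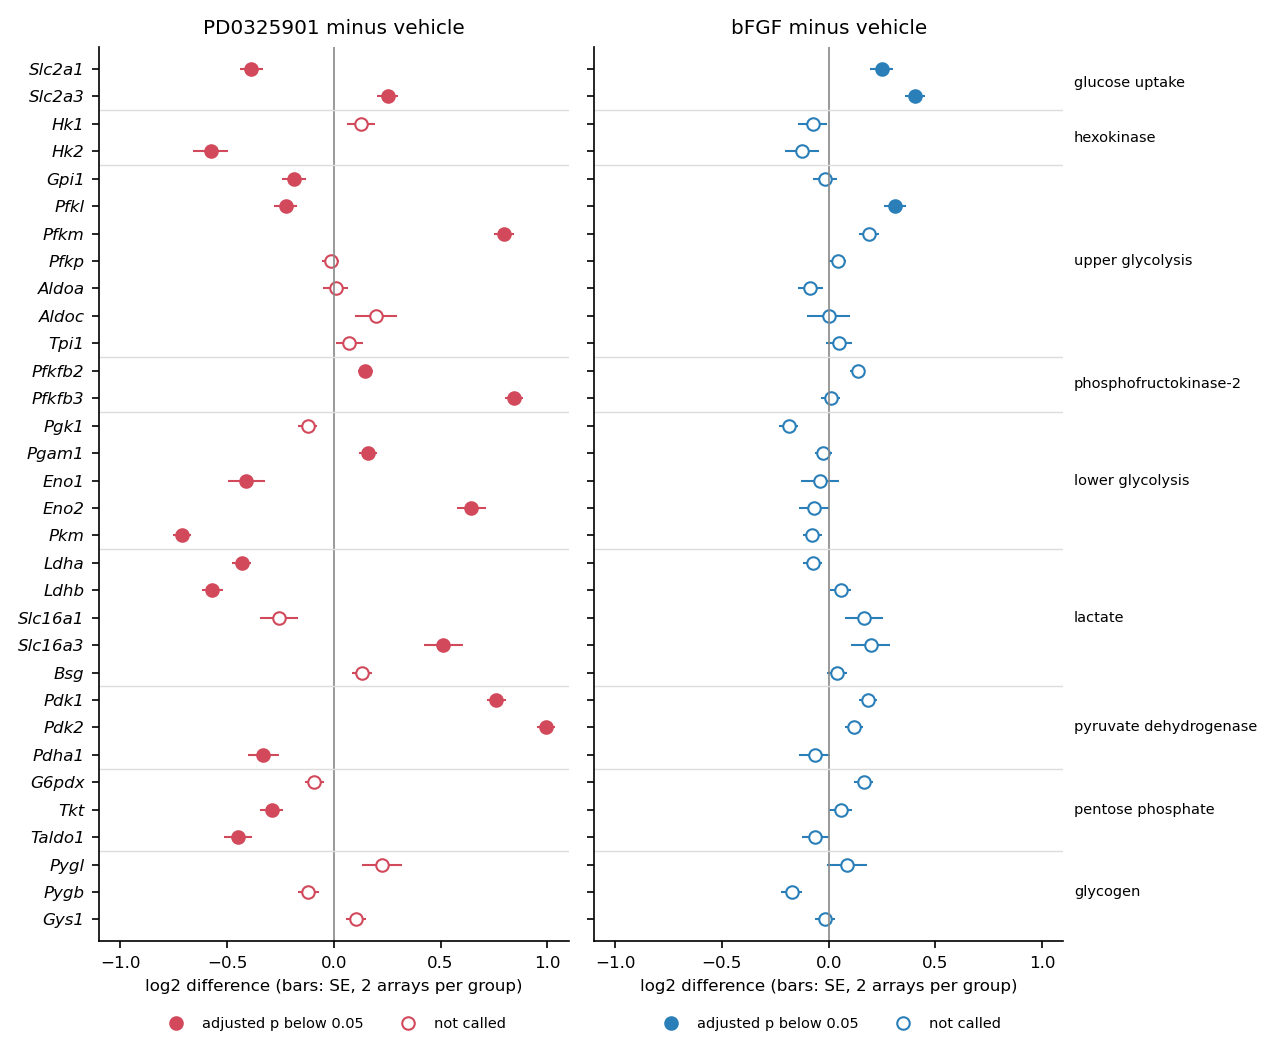
Log2 difference from vehicle for the 32 members, grouped by their step in the pathway, under PD0325901 (left, red) and bFGF (right, blue). Points are limma estimates with bars of 1 SE (2 arrays per group), filled where the adjusted p is under 0.05: 20 points are filled on the left, 9 above 0 and 11 below, and 3 on the right, all above 0.

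The promoters of these genes are shown because some glycolytic genes share a short sequence, ACGTG, which is the core of the hypoxia response element bound by HIF-1 and also lies within the E-box CACGTG bound by Myc and by the glucose-responsive factor encoded by Mlxipl. RefSeq windows of assembly GRCm38.p6, from 250 bases before to 50 after a gene's start, were searched on both strands. Windows were held for 32 of the 34 listed genes, all but Slc2a3 and Bsg. Of these, 12 genes had several windows, and the first listed was used unless stated. ACGTG was found in 16 of these 32 windows (50%), against 19.7% of 27018 genes in the table. It lay in 6 of the 8 windows of members that were higher under PD0325901, in 3 of 11 that were lower and in 6 of 11 that did not pass. Without Pfkfb2 the first of these counts was 5 of 7. Over all windows of a gene, ACGTG was found in 19 of the 32 genes (59.4%, against 21.8% of all genes), in 6 of 8, 4 of 11 and 8 of 11 of the same sets. CACGTG, which contains ACGTG, was found in 5 of the 32 (15.6%) against 7.24% of all genes, and in 6 over all windows (8.09% of all genes). GCGTG, the other form of the hypoxia core, was found in 19 of the 32 (59.4%) against 32.5% of all genes, so the excess was not particular to ACGTG. By set it was found in 3 of 8, 8 of 11 and 6 of 11, and over all windows in 5 of 8, 8 of 11 and 7 of 11 (35.2% of all genes). TGANTCA, where N is any base, covers the AP-1 site but is wider than it. It was in none of the 32 first windows (7.94% of all genes) and in 1 gene, Aldoa, over all windows (8.98%). CCGGAAG, an ETS site, was in 1 first window (9.12%). A match describes the letters in these windows and does not show binding.

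Stretches upstream of 4 members that were higher under PD0325901 and 3 that were lower are printed 5′ to 3′ on the strand of the gene, with ACGTG or its reverse complement CACGT in capitals, joined as CACGTG where both overlap. They lie at chr11:120949020-120949066 (plus strand) for Slc16a3, chr11:95041472-95041517 (minus) for Pdk2, chr2:11553965-11554009 (minus) for Pfkfb3, chr15:98092433-98092478 (plus) for Pfkm, chr7:46845639-46845794 (plus) for Ldha, chr4:119108689-119108733 (plus) for Slc2a1 and chr6:82774482-82774526 (minus) for Hk2.
Slc16a3, higher: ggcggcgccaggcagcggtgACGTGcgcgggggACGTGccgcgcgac
Pdk2, higher: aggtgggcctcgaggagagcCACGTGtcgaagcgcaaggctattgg
Pfkfb3, higher: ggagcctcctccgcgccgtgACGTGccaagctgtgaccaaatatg
Pfkm, higher: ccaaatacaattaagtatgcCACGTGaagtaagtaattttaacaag
Ldha, lower: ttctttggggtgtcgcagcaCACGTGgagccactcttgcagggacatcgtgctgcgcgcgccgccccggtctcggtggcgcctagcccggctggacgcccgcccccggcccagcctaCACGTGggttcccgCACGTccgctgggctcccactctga
Slc2a1, lower: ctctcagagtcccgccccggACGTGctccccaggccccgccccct
Hk2, lower: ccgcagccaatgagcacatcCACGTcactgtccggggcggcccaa
The members printed were picked by hand, in both directions, from those with a match. They therefore do not show how often the sequence occurs, which the counts above give. Ldha holds 2 copies of CACGTG and a further CACGT.

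The 2 facilitative glucose transporters moved apart under PD0325901. Slc2a1 encodes GLUT1, the widespread basal glucose transporter, and its log2 level was 1.97 and 1.88 with vehicle, 2.16 and 2.19 with bFGF and 1.49 and 1.58 with PD0325901. No group overlapped another, with the bFGF arrays highest and the PD0325901 arrays lowest. The difference was -0.39 ± 0.05 for PD0325901 (SE, 1.31-fold lower, adjusted p = 0.0052) and 0.25 ± 0.05 for bFGF (1.19-fold higher, adjusted p = 0.0442). Slc2a3 encodes GLUT3, a high-affinity glucose transporter. Its level was 1.60 and 1.55 with vehicle, 1.94 and 2.02 with bFGF and 1.84 and 1.81 with PD0325901. Both treated groups lay above vehicle, by 0.25 ± 0.05 under PD0325901 (adjusted p = 0.0132) and 0.40 ± 0.05 under bFGF (1.32-fold, adjusted p = 0.0149). The PD0325901 call for Slc2a3 was lost when either PD0325901 array was left out.

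Hexokinase 2, the inducible enzyme that traps glucose as its phosphate, was lower under PD0325901. Hk2 was at 5.08 and 5.26 with vehicle, 5.04 and 5.04 with bFGF and 4.53 and 4.65 with PD0325901, so that the PD0325901 arrays lay below all others. The difference was -0.58 ± 0.08 (SE, 1.49-fold lower, adjusted p = 0.00511), and under bFGF it was -0.12 ± 0.08 (adjusted p = 0.315). Hk1, the constitutive hexokinase, did not pass, at 0.13 ± 0.07 under PD0325901 (adjusted p = 0.169).

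Phosphofructokinase catalyses the committed step of glycolysis, and its 3 subunit genes behaved differently. Pfkm, the muscle-type subunit, was at 1.05 and 0.98 with vehicle, 1.21 and 1.20 with bFGF and 1.84 and 1.79 with PD0325901. The PD0325901 arrays lay clear of the others, 1.74-fold above vehicle (0.80 ± 0.05, adjusted p = 0.000474). Pfkl, the liver-type subunit, was at 1.23 and 1.13 with vehicle, 1.52 and 1.46 with bFGF and 0.95 and 0.95 with PD0325901. Its 3 groups were separate, with a fall of -0.23 ± 0.05 under PD0325901 (adjusted p = 0.0221) and a rise of 0.31 ± 0.05 under bFGF (1.24-fold, adjusted p = 0.0264). Pfkp, the platelet-type subunit, did not pass, at -0.02 ± 0.04 under PD0325901. The remaining enzymes of the upper pathway showed small values. Gpi1, which isomerises glucose 6-phosphate, passed at -0.19 ± 0.06 (adjusted p = 0.0463), but the call was lost in 9 of the 15 alternatives, while that of Pfkl was lost in 4. Aldoa (0.01 ± 0.06), Aldoc (0.20 ± 0.10) and Tpi1 (0.07 ± 0.06), the aldolases and triose phosphate isomerase, did not pass.

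Pfkfb3 makes fructose 2,6-bisphosphate, the strongest activator of phosphofructokinase, and it was among the members with the largest change. Its level was 1.54 and 1.49 with vehicle, 1.50 and 1.55 with bFGF and 2.38 and 2.34 with PD0325901. The vehicle and bFGF arrays overlapped, and both PD0325901 arrays stood above them, 1.80-fold over vehicle (0.84 ± 0.04, adjusted p = 0.000368). Of 2 dimmer Pfkfb3 probes, 1 rose by 0.79 under PD0325901 (adjusted p over all probes = 0.00238), and the other, at 0.55, did not pass (0.0607). Pfkfb2, a related enzyme, passed at 0.15 ± 0.04 (adjusted p = 0.0262), a call lost in 9 of the 15 alternatives. Its probes disagreed: another was lower by -0.68 ± 0.17 (adjusted p over all probes = 0.0372) and the remaining probe was at 0.06, so the count of 9 higher members includes 1 whose direction depends on the probe.

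In lower glycolysis the ubiquitous enolase and pyruvate kinase were lower under PD0325901. Pkm encodes the pyruvate kinase of most tissues, whose splice forms M1 and M2 were not told apart here. It was at 3.80 and 3.82 with vehicle, 3.72 and 3.75 with bFGF and 3.13 and 3.07 with PD0325901. This was the largest fall among the members, 1.64-fold (-0.71 ± 0.04, adjusted p = 0.00052), with a wide gap between the PD0325901 arrays and the rest. Eno1, the ubiquitous enolase, was at 1.45 and 1.23 with vehicle, 1.30 and 1.30 with bFGF and 0.98 and 0.88 with PD0325901, a difference of -0.41 ± 0.09 (adjusted p = 0.0179) that did not pass when either PD0325901 array was left out. Eno2, the neuronal enolase, moved the other way. It was at -4.03 and -4.17 with vehicle, -4.17 and -4.17 with bFGF and -3.40 and -3.51 with PD0325901, a rise of 0.64 ± 0.07 (1.56-fold, adjusted p = 0.00245). A second Eno2 probe rose by 0.65. Pgam1, the phosphoglycerate mutase, passed at 0.16 ± 0.04 (adjusted p = 0.0315), a call lost in 8 alternatives. Pgk1, the phosphoglycerate kinase, did not pass at -0.12 ± 0.04 (adjusted p = 0.077), though its second probe did at -0.24 ± 0.05 (adjusted p over all probes = 0.0182).

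Both lactate dehydrogenases were lower under PD0325901, and the lactate transporter Slc16a3 was higher. Ldha encodes the subunit that favours the making of lactate from pyruvate. It was at 5.39 and 5.33 with vehicle, 5.27 and 5.30 with bFGF and 4.94 and 4.92 with PD0325901. The PD0325901 arrays lay below all others, 1.35-fold under vehicle (-0.43 ± 0.04, adjusted p = 0.00211), and a second Ldha probe fell by 0.49 on the log2 scale. Ldhb, the subunit that favours the reverse reaction, was at 7.17 and 7.21 with vehicle, 7.29 and 7.21 with bFGF and 6.61 and 6.64 with PD0325901. Its vehicle and bFGF arrays overlapped, and it was 1.49-fold lower under PD0325901 (-0.57 ± 0.05, adjusted p = 0.00129).

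Slc16a3 encodes MCT4, a transporter suited to lactate export. It was at 2.39 and 2.19 with vehicle, 2.42 and 2.55 with bFGF and 2.81 and 2.79 with PD0325901. The PD0325901 arrays were highest, 1.43-fold over vehicle (0.51 ± 0.09, adjusted p = 0.0101). That call was lost when either PD0325901 array was left out. Slc16a1 encodes MCT1, which carries lactate in both directions, and was at 2.63 and 2.44 with vehicle, 2.65 and 2.75 with bFGF and 2.23 and 2.33 with PD0325901. The PD0325901 arrays were again apart but on the low side, and the difference of -0.26 ± 0.09 did not pass (adjusted p = 0.0676). Of its other probes, 1 passed at -0.20 ± 0.04 (adjusted p over all probes = 0.027) and 1 did not, at -0.17 ± 0.08. Bsg encodes basigin, the chaperone that brings both transporters to the membrane, and did not pass at 0.13 ± 0.05 (adjusted p = 0.073).

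The kinases that switch off pyruvate dehydrogenase were higher under PD0325901. Pdk2 was at -3.46 and -3.46 with vehicle, -3.34 and -3.34 with bFGF and -2.43 and -2.50 with PD0325901. Its 3 groups were separate, and the PD0325901 arrays were 1.99-fold above vehicle (0.99 ± 0.04, adjusted p = 0.000242), the largest difference of any member. Pdk1, a kinase of the same family, was at -0.14 and -0.08 with vehicle, 0.07 and 0.08 with bFGF and 0.64 and 0.67 with PD0325901. It rose 1.70-fold under PD0325901 (0.76 ± 0.04, adjusted p = 0.000443), and the bFGF arrays lay between the other groups. Pdha1, the catalytic subunit that these kinases phosphorylate, was lower by -0.33 ± 0.07 (adjusted p = 0.019), and its second probe by -0.28 ± 0.05. The call was lost when either PD0325901 array was left out.

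In the pentose phosphate pathway, which supplies NADPH and ribose, the non-oxidative enzymes Taldo1 and Tkt were lower under PD0325901. Taldo1, transaldolase, was at 6.35 and 6.23 with vehicle, 6.28 and 6.17 with bFGF and 5.82 and 5.85 with PD0325901. The PD0325901 arrays lay below the others, 1.37-fold under vehicle (-0.45 ± 0.07, adjusted p = 0.00564). Tkt, transketolase, was lower by -0.29 ± 0.05 (adjusted p = 0.011), a call lost when either PD0325901 array was left out, and its second probe by -0.55 ± 0.05. G6pdx, the enzyme of the first oxidative step, was at 4.51 and 4.48 with vehicle, 4.65 and 4.67 with bFGF and 4.44 and 4.36 with PD0325901. Its 3 groups were separate in order, but neither difference from vehicle passed, at -0.09 ± 0.04 under PD0325901 (adjusted p = 0.146) and 0.16 ± 0.04 under bFGF (adjusted p = 0.0684). The 3 glycogen members did not pass in either comparison with vehicle: the glycogen phosphorylases Pygl (0.23 ± 0.09) and Pygb (-0.12 ± 0.05) and the glycogen synthase Gys1 (0.10 ± 0.05) under PD0325901.

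**Figure D2:**
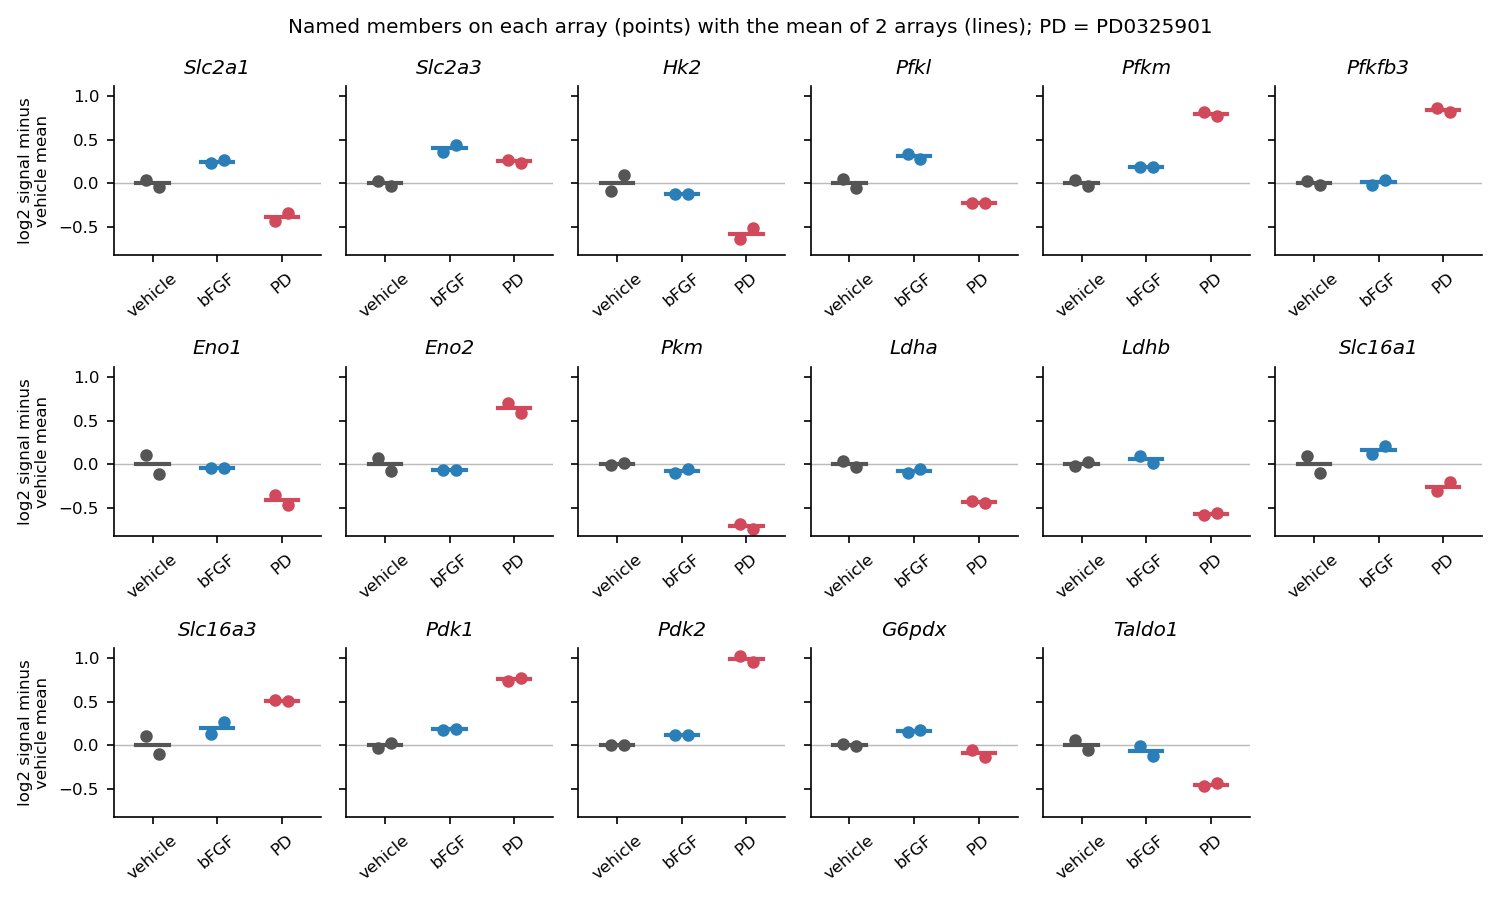
Log2 level on each array minus the mean of the vehicle arrays, for 17 members, by treatment. Points are arrays and lines are means of 2 arrays. The PD0325901 points lie above both other groups for Pfkm, Pfkfb3, Eno2, Slc16a3, Pdk1 and Pdk2. They lie below both for Slc2a1, Hk2, Pfkl, Eno1, Pkm, Ldha, Ldhb, Slc16a1, G6pdx and Taldo1. Most members shown were picked for a large called difference under PD0325901, so this separation largely follows from the choice. The share of all genes tested that separate in this way is not given.

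bFGF changed few of these genes. Slc2a1, Slc2a3 and Pfkl were higher than with vehicle, none was lower, and 29 did not pass. The members called were 9.38% of the 32, against 19.9% of all genes tested (12.6% higher and 7.28% lower). The median difference was 0.024 for the members and 0.026 for all genes, and the members ranged from -0.19 to 0.40. No member reached 1.5-fold, a size at which 7.76% of all genes passed (3.78% at 2-fold). Unadjusted, 10 members had a p under 0.05. Pdk1 (0.18 ± 0.04, adjusted p = 0.0505), Pgk1 (-0.19 ± 0.04, adjusted p = 0.052) and Pfkm (0.19 ± 0.05, adjusted p = 0.0557) lay nearest the threshold. For Slc16a1 the brightest probe did not pass (0.16 ± 0.09, adjusted p = 0.237), but its 2 less bright probes were higher, by 0.20 ± 0.04 (adjusted p over all probes = 0.048) and 0.57 ± 0.08 (0.0189). All 3 probes agreed in sign. With vehicle the first of these 2 was at 1.68 and 1.72 and the second at -2.62 and -2.59, so neither was below -4. A Pfkfb3 probe that was much dimmer, at -5.37 and -5.42 with vehicle, was higher by 0.45 ± 0.07 (0.0221), while the bright one was at 0.01 ± 0.04. Dim probes as a whole read higher on the bFGF arrays: among 3160 genes with a mean level below -4 the median difference was 0.57, against -0.04 among 6662 genes at 0 or above. Among 1959 genes from -4 to -2 it was 0.12. No member had a mean level below -4, and 24 were at 0 or above, where 5.4% of all genes were higher under bFGF. None of the 3 calls held in all 15 alternatives. With either bFGF array left out no member passed.

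**Figure D3:**
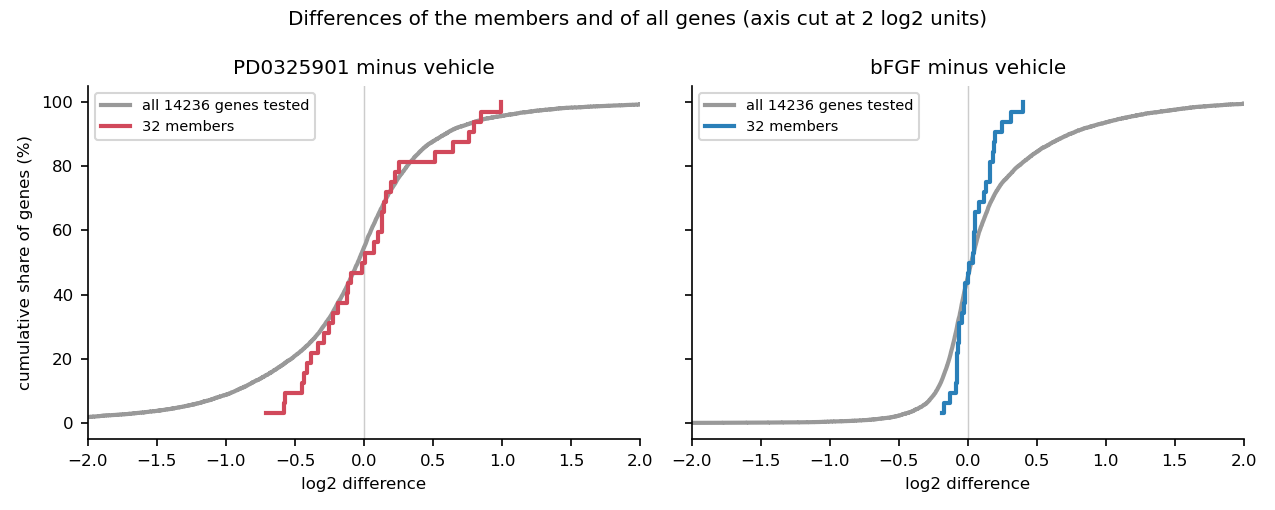
Cumulative share of genes (%) against the log2 difference from vehicle, for the 32 members (coloured steps) and all 14236 genes tested (grey), under PD0325901 (left) and bFGF (right). The members span -0.71 to 0.99 under PD0325901 and -0.19 to 0.40 under bFGF, while the grey curves run past both ends of the axis.

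The treatments were also compared with each other, using the same bFGF and PD0325901 arrays as above, so these values are not independent of those against vehicle. With bFGF, 13 members were higher and 7 lower than with PD0325901 (62.5% of the 32), and 62% of all genes tested passed (36.6% higher and 25.4% lower). A change of at least 1.5-fold passed for 7 members, beside 30.8% of all genes. Slc2a1 (0.64 ± 0.05, 1.55-fold), Pkm (0.63 ± 0.04) and Ldhb (0.63 ± 0.05) were the members most above their level with PD0325901. Pdk2 (-0.88 ± 0.04, 1.83-fold), Pfkfb3 (-0.83 ± 0.04) and Eno2 (-0.71 ± 0.07) were the most below it. Both Slc16a1 (0.42 ± 0.09, adjusted p = 0.0147) and G6pdx (0.26 ± 0.04, adjusted p = 0.00821) passed here and in neither comparison with vehicle. All 3 Slc16a1 probes were higher with bFGF than with PD0325901, by 0.41 to 0.75. Of the 20 calls, 13 were made in all 15 alternatives.

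Another 89 genes of the same pathways were examined, of which 77 could be tested. They divide into glucose entry, other glycolytic enzymes, pyruvate and lactate, other pentose phosphate genes, other glycogen genes and regulators. Under PD0325901, 27 were higher, 18 lower and 32 did not pass (58.4% called, beside 53.4% of all genes), with a median of 0.07. In the glucose entry group 4 of 10 were higher and 5 lower. Among pyruvate and lactate genes 4 of 19 were higher and 3 lower, and among glycogen genes 8 of 16 were higher and 3 lower. The largest rises were in Eno3, the muscle enolase (1.89 ± 0.06, 3.71-fold, adjusted p = 0.000114), Slc2a12, a further glucose transporter (1.52 ± 0.07), Slc2a4, the insulin-responsive transporter GLUT4 (1.14 ± 0.05), and Mlxipl, which encodes the glucose-responsive factor ChREBP (0.99 ± 0.08). Eno3 was at -0.08 and 0.01 with vehicle, 0.26 and 0.34 with bFGF and 1.85 and 1.86 with PD0325901. Both treated groups lay above vehicle, the PD0325901 arrays by far the more.

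The largest falls were in Hkdc1, a hexokinase-like gene (-2.02 ± 0.24, adjusted p = 0.00299), H6pd, the hexose 6-phosphate dehydrogenase of the endoplasmic reticulum (-1.23 ± 0.04), Ppp1r3c, which targets a phosphatase to glycogen (-1.07 ± 0.08), and Epas1, which encodes HIF-2α (-1.06 ± 0.14). Epas1 was above background on only 1 of 2 PD0325901 arrays. Hkdc1 and Epas1 are dim, and the 3160 genes with a mean level below -4 had a median of -0.41 in this comparison. Pdk4, another kinase of pyruvate dehydrogenase, rose by 0.61 ± 0.06 (adjusted p = 0.00153), as Pdk1 and Pdk2 did. Slc16a7, the high-affinity lactate and pyruvate transporter MCT2, rose by 0.44 ± 0.10 (adjusted p = 0.0208). Among regulators, Hif1a rose by 0.34 ± 0.07 (adjusted p = 0.0174) and Myc by 0.40 ± 0.04 (adjusted p = 0.00187). Txnip, an inhibitor of glucose uptake, was at -0.12 ± 0.06 and did not pass (adjusted p = 0.163), though its second probe did at -0.19 ± 0.04 (adjusted p over all probes = 0.0261).

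**Figure D4:**
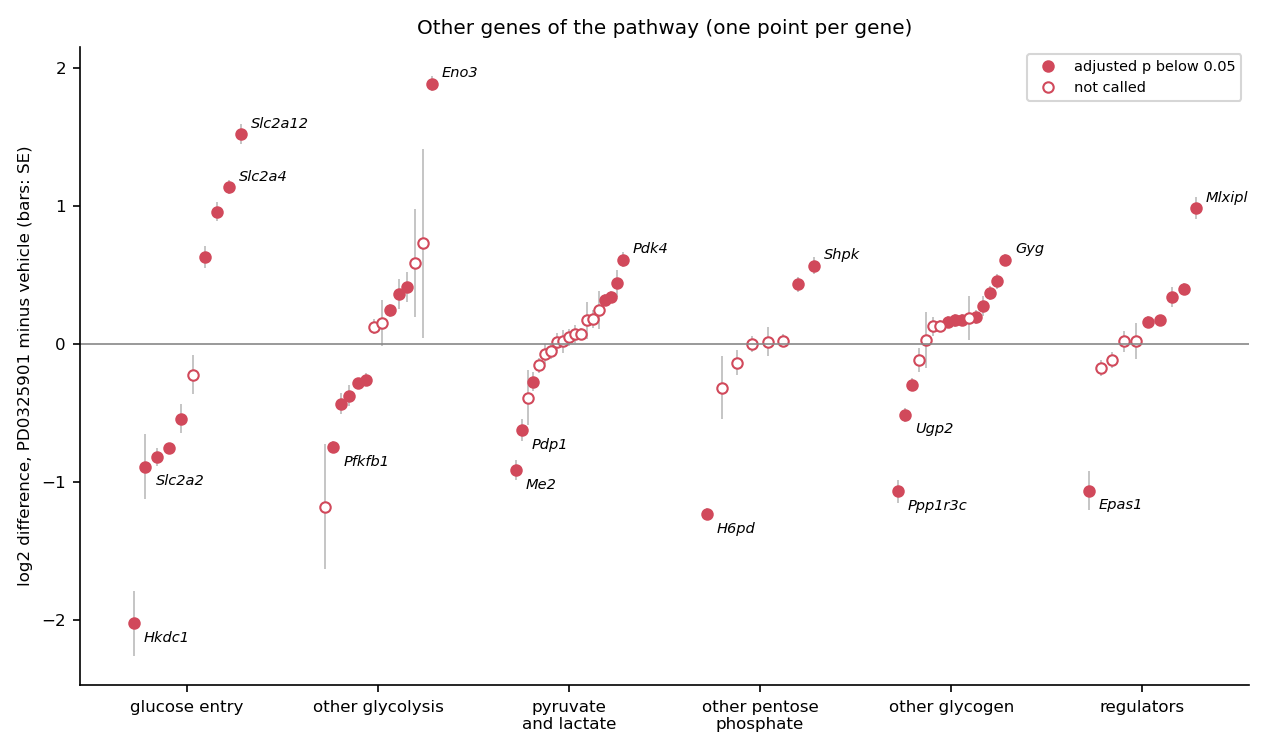
Log2 difference between PD0325901 and vehicle for the 77 other pathway genes tested, 1 point per gene in 6 groups, with bars of 1 SE and filled points for an adjusted p under 0.05. The points run from -2.02 for Hkdc1 to 1.89 for Eno3, and each group holds filled points on both sides of 0.

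Pfkm, Eno3 and Slc2a4, picked from the genes that were higher under PD0325901, are genes that muscle also expresses. Not all such genes rose, since Hk2, which muscle expresses too, was lower. Of other muscle isoforms listed, Pygm (-0.11 ± 0.09, adjusted p over all probes = 0.36) and Phka1 (0.19 ± 0.16, 0.383) did not pass. Pgam2, the muscle phosphoglycerate mutase, was higher (0.41 ± 0.11, 0.0459). Among markers of other cells, those of the contractile peritubular myoid cell were also higher. Of 6 such markers, all above background, 4 were higher under PD0325901 and none lower. For this list and those that follow, the shares of all genes tested were 24.1% higher and 29.3% lower. Lists this short cannot be told from those shares by their counts alone. Des differed by 2.86 ± 0.09, Cnn1 by 2.48 ± 0.11, Acta2 by 0.79 ± 0.08 and Myh11 by 0.38 ± 0.10. Of 2 other Acta2 probes, 1 differed by 1.08 ± 0.08 and 1 by 0.0055 ± 0.05 (adjusted p over all probes = 0.929). The summed log2 level of the 6 was 5.94 and 6.04 with vehicle, 5.98 and 6.13 with bFGF and 6.50 and 6.51 with PD0325901. Of 5 fibroblast markers 3 were higher and none lower, with sums of 4.66 and 4.66 with vehicle, 4.54 and 4.68 with bFGF and 5.13 and 5.10 with PD0325901. Other lists were lower: 4 of 5 endothelial markers, with sums from 0.10 to 0.55 with vehicle, 0.24 to 0.30 with bFGF and -1.18 to -0.996 with PD0325901, and 2 of 5 macrophage markers, with sums of 3.54 to 3.68, 3.08 to 3.19 and 3.01 to 3.06. Of 4 Leydig cell markers 2 were lower, and of 2 red blood cell markers 1 was lower. Pecam1 and Tie1, 2 of the endothelial markers, were not well above background on either PD0325901 array. The part of these cells in the differences of the glucose genes was not tested.

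Under bFGF 12 of the 77 other pathway genes were higher and 7 lower (24.7% called). Of all genes tested, 19.9% were called (12.6% higher and 7.28% lower). The largest rises were in Ldhc (0.69 ± 0.14, adjusted p = 0.0363), Epas1 (0.66 ± 0.14, dim, with a mean level below -4), Slc2a12 (0.62 ± 0.07) and Ldhd, the D-lactate dehydrogenase (0.54 ± 0.07). The largest falls were in Slc2a9, a urate and hexose transporter (-0.45 ± 0.07), Me1, the cytosolic malic enzyme (-0.34 ± 0.06), Gyg, the primer of glycogen (-0.33 ± 0.04), and the brightest probe of Pgm3 (-0.33 ± 0.05), an enzyme of amino sugar synthesis. The probes of Pgm3 disagreed, since its second was higher by 0.51 ± 0.10 (adjusted p over all probes = 0.0382). A second Ldhd probe (0.16 ± 0.10) and 2 further detected Slc2a9 probes (-0.48 ± 0.16 and 0.46 ± 0.17) did not pass. Ldhc, Pgk2 and Gapdhs encode isoenzymes made in male germ cells. Ldhc was at 3.68 and 3.45 with vehicle, 4.10 and 4.42 with bFGF and 3.83 and 3.81 with PD0325901. The bFGF arrays lay above all others. Pgk2 was also higher under bFGF (0.50 ± 0.11, adjusted p = 0.0454), as was Gapdhs (0.47 ± 0.07, adjusted p = 0.0235), which also has a mean level below -4. All genes that dim had a median of 0.57 under bFGF, and 26.4% of them were higher. Of 7 germ cell markers tested, which include these 3 genes, 6 were higher under bFGF and none lower (12.6% of all genes were higher). The summed log2 level was 4.14 and 3.92 with vehicle, 4.55 and 4.83 with bFGF and 4.31 and 4.31 with PD0325901. Signals were summed on the linear scale, and Ldhc, the brightest of the 7, makes up most of each sum. The sums therefore largely repeat the Ldhc levels. Under PD0325901 Pgk2 was higher (0.36 ± 0.11, adjusted p = 0.0477), Gapdhs lower (-0.43 ± 0.07, adjusted p = 0.00956) and Ldhc did not pass (0.25 ± 0.14, adjusted p = 0.187). The value for Gapdhs was near the median of -0.41 of all genes with a mean level below -4. The part of germ cells in these values was not tested.

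Targets of HIF-1 outside glycolysis were also examined. Of 18 listed, 17 were tested, and under PD0325901 6 were higher, 4 lower and 7 did not pass (58.8% called, near the 53.4% of all genes), with a median of 0.02. Adm, a vasodilator peptide (1.26 ± 0.05), Bnip3, a mitophagy receptor (1.02 ± 0.05), and Mxi1, a Myc antagonist (0.84 ± 0.07), rose most. Bhlhe40, a transcriptional repressor (-1.65 ± 0.06), and the collagen hydroxylases Plod2 (-1.21 ± 0.04) and P4ha1 (-0.58 ± 0.06) fell most. P4ha2, a further collagen hydroxylase, went the other way (0.72 ± 0.04, adjusted p over all probes = 0.000992). Under bFGF none of the 17 was higher by limma at an adjusted p under 0.05, 2 were lower, and 4 had an unadjusted p under 0.05. That is 11.8% called, beside 19.9% of all genes.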

How the data were processed

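The 6 scanner tables, 1 per array, hold spot intensity on a linear scale as deposited by the authors. Agilent Feature Extraction wrote them (version 9.5.3.1 per the file headers, 9.5 per the submitters' processing notes), and the processed intensity is background-subtracted and not normalized between arrays, per the file headers. The authors also deposited a table of log2 values. For 100% of 41091 probes its values match, within 0.001, the log2 of the processed signal after a shift per array and centring on each probe's median, with an unknown constant common to all arrays. Its column medians were 0.020 and 0.018 (vehicle), 0.0050 and 0.0042 (bFGF) and -0.107 and -0.012 (PD0325901). It served as an alternative.

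Spots flagged as outliers and control spots were left out and spots of 1 probe averaged. Of 41174 probes, 23374 (56.8%) were named through RefSeq accessions (assembly GRCm38.p6). The array design used the older build mm8, so no probe positions are given. Testing required a probe well above background on both arrays of any 1 group, and a gene was represented by its brightest such probe on average. limma 3.58.1 (lmFit, eBayes, under R 4.3.3) fitted all 6 arrays at once, leaving 3 residual degrees of freedom. P-values were adjusted over 14236 genes by Benjamini-Hochberg, and 0.05 was the threshold. With 2 arrays against 2 an exact test cannot go below 0.333, and the small number of arrays limits precision. The model was tested on simulated data.

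Levels on each array are given for the 12 largest changes called under PD0325901, those called under bFGF, and Slc2a1, Hk2, Pfkfb3, Ldha, Ldhb, Slc16a1, Slc16a3, Pdk1 and G6pdx. Of the other pathway genes, the 4 largest called each way are named, with Ldhc, Pgk2, Gapdhs, Slc16a7, Pdk4, Txnip, Hif1a and Myc, and of HIF-1 targets the 3 largest each way. Pygm, Phka1, Pgam2 and P4ha2 were added beside related genes after their values were seen. The myoid markers named and the split by mean level were chosen after their values were seen. Members and lists were chosen with earlier results of these data known.

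Across 245 probes spotted repeatedly, variance between the 2 arrays exceeded that implied by repeated spots by a median ratio of 1.84 (vehicle), 1.82 (bFGF) and 3.03 (PD0325901), where 0.474 would be the chance value. Hybridising 1 RNA on separate arrays could give such ratios, so they do not show separate cultures.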

Additional observations from a re-analysis of the deposited data

How the results depend on the processing

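Counts of members called under PD0325901 against vehicle stayed within 1.5 times of 9 higher and 11 lower except when a PD0325901 array was left out. Leaving out each array in turn gave 5 to 8 higher and 6 to 11 lower. The median of the members ranged from -0.028 to 0.055 over all settings, so it has no settled sign. For bFGF against vehicle, 3 higher became 5 with quantile normalization, 6 with the 75th percentile taken over probes above background on all arrays, 6 with normexp, 5 higher and 1 lower with only probes above background on all 6 arrays, 6 higher and 1 lower with the mean over a gene's probes, and 1 with only the 2 groups compared. Leaving out each array gave 0 to 2 higher and 0 lower. Without bFGF replicate 2, limma called 0 of 14236 genes, 3722 having an unadjusted p under 0.05. The cause was not tested. Counts for bFGF against PD0325901 stayed within 1.5 times, at 9 to 12 higher and 5 to 7 lower with each array left out.

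Among the 17 members with levels given on each array, signs turned only in the comparison of bFGF with vehicle, for values that did not pass: Taldo1 to 0.016 and Ldha to 0.027 with quantile normalization, Ldha to 0.098 and Pdk2 to -0.067 with normexp, and, with 1 array left out, Eno2 (range -0.14 to 0.0027) and Eno1 (-0.15 to 0.068) without vehicle replicate 1, and Pfkfb3 (-0.015 to 0.035) without vehicle replicate 2 or bFGF replicate 2. No scaling moved the median of all genes by over 0.1.

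Replicate numbers did not pair the arrays: same-numbered deviations correlated at -0.077 (vehicle and bFGF), 0.120 (vehicle and PD0325901) and -0.117 (bFGF and PD0325901). With the number as a block, 7 members were higher and 10 lower under PD0325901, 2 higher under bFGF, and 11 higher and 6 lower for bFGF against PD0325901. Of all genes, 19.9% were called under bFGF, against 9.9% with the block, 8% with only the 2 groups compared and 0% to 13.2% with each array left out. Normexp on the mean signal was not run, and the median signal was used instead, chosen after seeing the data.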
